A study of Mus musculus with 12 samples.

Results

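This comparison covers the sub-acute phase of repetitive mild traumatic brain injury (rmTBI) in mice: the 3 arrays of microglial exosomes taken at 14 days post-injury (DPI) against the 3 arrays of sham mice. These are 6 of the 12 arrays of the series, chosen by their labels, and all 1881 mouse miRNAs on the array were read. The animals of all groups were male C57BL/6 adults, 12 weeks old. The rmTBI mice received 4 closed-head impacts at 48-h intervals, and the sham mice underwent the same handling without an impact. The RNA came from exosomes of the cerebrum that were captured with an antibody against CD11b, a surface protein of microglia and of other myeloid cells. How many mice went into an array is not given in the sources used here, so the p-values measure only the spread between arrays, which may be technical. Unless said otherwise, that spread was pooled over all 12 arrays of the series, not taken from these 6 alone. The question was which exosomal miRNAs stood higher or lower in the sub-acute phase than in sham.

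Exosomes are small vesicles that cells release and that other cells can take up. They carry miRNAs, short RNAs that are cut from a hairpin precursor and that guide silencing proteins to mRNAs. A miRNA recognizes its targets mainly through its seed, bases 2 to 8 from the 5′ end, so miRNAs with the same seed form a family. In a mixture of exosomes, fewer vesicles that hold a miRNA and less of it per vesicle cannot be told apart.

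A level is given here as the log2 of a miRNA's summed probe intensity over the 75th percentile of its array, so that 0 is the 75th percentile. The lowest value allowed was -5.13. A miRNA was tested when it was detected above background on all arrays of at least 1 group, which left 486 of the 1881. It was called when its adjusted p from limma was under 0.05. A sham array detected 243 to 285 miRNAs and an array of 14 DPI 408 to 474, and the 75th percentile of the unscaled intensity was 217 to 348 in sham and 588 to 1173 at 14 DPI. The sham arrays lay on slide 1 and those of 14 DPI on slide 2, so slide and injury cannot be told apart. Across miRNAs, 14 DPI replicates 2 and 3 correlated with r = 0.996, whereas replicate 1 reached 0.874 and 0.885 with them and the sham arrays 0.942 to 0.988 with one another. The counts and the values of the named miRNAs are therefore given with and without replicate 1.

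The label of the cells was set against miRNAs of known cell types. Of 4 miRNAs enriched in myeloid cells, the class to which microglia belong, miR-142a-5p and miR-223-5p were detected on none of the 6 arrays. miR-142a-3p was detected on 0 sham arrays and 2 arrays of 14 DPI, and miR-223-3p on 1 and 3. The summed myeloid signal was 0.089 to 0.122 of the 75th percentile in sham and 0.0729 to 0.112 at 14 DPI. Of 14 neuron-enriched miRNAs, 13 were detected on all 6 arrays. Their summed signal was 23.5 to 32.4 times the 75th percentile in sham and 23.9 to 45.4 times at 14 DPI. What these signals say about the source of the exosomes was not tested.

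At 14 DPI, 18 of the 486 miRNAs were called, or 3.7% of those tested, of which 8 were higher (1.65%) and 10 lower (2.06%). Without an adjustment, 104 had p under 0.05. In 71 of the 486 (14.6%) the groups did not overlap, among them all 18. The 8 that rose were miR-3968, miR-6412, miR-3963, miR-150-5p, miR-30b-5p, miR-5100, miR-1198-5p, and miR-7671-3p. The 10 that fell were miR-200c-3p, miR-3475-5p, miR-7055-3p, miR-7115-3p, miR-3620-3p, miR-6934-3p, miR-6943-3p, miR-7687-3p, miR-3099-3p, and miR-664-3p. All 18 also passed without replicate 1. The count depended on single arrays: it was 7 without 14 DPI replicate 2, 2 without 14 DPI replicate 3, 2 without sham replicate 1, 1 without sham replicate 2, and 20 without sham replicate 3. In a fit of the 6 arrays alone, which takes no spread from the other groups, limma called 0, with 70 at an unadjusted p under 0.05.

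Of the 18, 16 had a mature sequence in the RefSeq table of the mouse assembly GRCm38.p6, as did 418 of the 486 tested. They are shown because stretches of letters recur among them, in the rises mostly within the seed and in the falls outside it. The seed is in capitals and the sequences run 5′ to 3′. The 6 that rose were as follows.
miR-3963: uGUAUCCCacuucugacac
miR-3968: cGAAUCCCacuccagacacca
miR-5100: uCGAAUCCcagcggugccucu
miR-6412: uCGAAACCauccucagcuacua
miR-1198-5p: uAUGUGUUccuggcuggcuugg
miR-7671-3p: aAGCGGGCaggcggagaaccac
The 10 that fell were as follows.
miR-3475-5p: aAAUCAUGuacccccacagagg
miR-3620-3p: cUGCUCAGccccgcccacccca
miR-664-3p: uAUUCAUUuacuccccagccua
miR-6934-3p: aCCUCUGCuccugccccaccag
miR-6943-3p: cUGCUUCCauaccccuacccag
miR-7055-3p: uUGCUACUuugauaccccaccag
miR-7115-3p: aCUUGGUCcccugcccccacag
miR-7687-3p: cCACUCAGucgccccgccaca
miR-3099-3p: uAGGCUAGagagagguugggga
miR-200c-3p: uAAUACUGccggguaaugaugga

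Among the rises, 3 of the 6 shared a stretch of letters that stood in no other miRNA tested with a sequence. The letters AUCCCA, chosen after the sequences and values were seen, were found in miR-3963, miR-3968, and miR-5100. These 3 of 418 are 0.718% of the miRNAs tested with a sequence, against 7 of 1608 (0.435%) over the whole array. The stretch was longer between pairs: miR-3968 and miR-5100 had the 9 letters CGAAUCCCA in common, and miR-3963 and miR-3968 the 8 letters AUCCCACU. miR-5100 and miR-6412 both began with UCGAA, which no other miRNA tested with a sequence contained. As background, CGAAUCC also stands in the T arm of many transfer RNAs, the RNAs that bring amino acids to the ribosome. Which RNA bound these probes was not tested.

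Among the falls, 8 of 10 contained CCCC, all except miR-3099-3p and miR-200c-3p, and 0 of the 6 rises did. This motif, also chosen after the sequences were seen, stood in 38 of the 418 miRNAs tested with a sequence (9.09%) and in 7.46% of the 1608 on the array. The 6 falls that no sham array detected all contained it. For all 8 falls with CCCC the mean unscaled intensity was higher at 14 DPI than in sham, so they fell only relative to brighter arrays. CAG closed 4 of the 10 falls, 4.31% of the 418, and 9.83% of the 1608. No other miRNA tested with a sequence had the seed of any of the 16, apart from miR-200b-3p and miR-429-3p, which have that of miR-200c-3p. miRNAs numbered from 3000 upward, here called late-annotated, made up 5 of the 8 rises and 8 of the 10 falls, against 155 of the 486 tested (31.9%).

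The 4 rises with the recurring letters lie apart in the genome (GRCm38.p6, gene spans only). miR-3963 is at chr3:151023839-151023857 on the minus strand, outside other genes. miR-3968 is at chr11:115447969-115447989 on the minus strand, within the span of Trim80. On the plus strand, miR-5100 is at chr11:60728698-60728718 within Mief2, and miR-6412 at chr10:122648412-122648433 within the long noncoding RNA Gm36284. Of the other rises, miR-1198-5p is at chrX:7807142-7807163 within Gripap1 (plus strand) and miR-7671-3p at chr11:53763597-53763618 (minus strand).

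Of the falls, 9 lay within the spans of protein-coding genes. miR-3475-5p is at chrX:140310949-140310970 within Frmpd3 and the long noncoding RNA Gm32113, miR-3620-3p at chrX:150547385-150547406 within Apex2, and miR-664-3p at chr1:185243012-185243033 within Rab3gap2 and the small nucleolar RNA Snora36b. miR-6934-3p is at chr11:119154076-119154097 within Tbc1d16, miR-6943-3p at chr13:55453150-55453171 within Grk6, and miR-7687-3p at chr8:120538734-120538754 within Gse1. miR-7055-3p is at chr7:45173339-45173361 within Slc17a7, which encodes a vesicular glutamate transporter of neurons, and miR-7115-3p at chr11:70438297-70438318 within Arrb2, which encodes a beta-arrestin. miR-3620-3p and miR-6934-3p are on the minus strand and the others named here on the plus strand. miR-3099-3p is at chr7:6803638-6803659 within Usp29 (plus strand), and miR-200c-3p at chr6:124718324-124718346 (minus strand).

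miR-3963 had a scaled log2 level of 4.10, 3.84, and 4.03 on the sham arrays and of 5.54, 5.15, and 5.14 at 14 DPI. All 3 injured arrays stood above all 3 sham arrays. The log2 change was 1.29 (SE 0.21, limma adjusted p = 0.0178), or 2.44-fold, and 1.16 (SE 0.23, adjusted p = 0.011) without replicate 1. Before scaling, its intensity was 4870, 3108, and 5698 in sham and 27362, 41787, and 39347 at 14 DPI. It took 3.76% to 4.61% of the summed miRNA signal of a sham array and 8.22% to 11.8% at 14 DPI.

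miR-5100 was likewise detected on all 6 arrays. Its level was 1.91, 1.94, and 2.09 in sham and 3.40, 2.98, and 2.98 at 14 DPI, again without overlap. The change was 1.13 (SE 0.18, adjusted p = 0.0178), or 2.20-fold, and 0.99 (adjusted p = 0.0091) without replicate 1. Both probes of miR-5100 and both of miR-3963 gave groups that did not overlap. Whether probes for miRNAs with such similar letters also bind one another's RNA was not tested.

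miR-6412 was detected on no sham array and on all 3 arrays of 14 DPI. It lay at the floor in sham and at -3.73, -3.12, and -2.86 at 14 DPI. It was at least 1.92-fold higher (adjusted p = 0.00422), measured against the lowest signal that counted as detected in sham. Only 1 of its 2 probes separated the groups. The adjusted p of miR-6412 without replicate 1 was 0.000209, the lowest of all miRNAs tested. miR-6412 entered the test only through 14 and 42 DPI, where it was high. Its sham values had no spread because all lay at the floor, so its p depends on the floor.

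miR-3968 varied most among the rises. It was at -4.42, -3.44, and -2.55 in sham, where 2 of 3 arrays detected it, and at -1.74, 0.02, and -0.01 at 14 DPI. The groups did not overlap, although replicate 1 lay closer to sham than the other two arrays. The change was 2.89 (SE 0.54, adjusted p = 0.0205), and 3.48 (SE 0.44, adjusted p = 0.00438) without replicate 1. Only 1 of its 2 probes separated the groups, and with the total signal of the scanner software in place of the summed probes the change was -4.35 (adjusted p = 0.00159).

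miR-30b-5p, a member of the miR-30 family, was detected on all 6 arrays. Its level was -2.08, -1.72, and -1.59 in sham and -1.09, -0.44, and -0.41 at 14 DPI, without overlap. The change was 1.15 (SE 0.21, adjusted p = 0.0197), or 2.22-fold, and 1.37 without replicate 1 (adjusted p = 0.00438). Both of its probes separated the groups.

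miR-150-5p, known from mature lymphocytes, was detected on no sham array. Its level was -5.13, -4.94, and -5.00 in sham and -4.29, -3.26, and -3.76 at 14 DPI, a rise of at least 1.33-fold (adjusted p = 0.0215, and 0.00438 without replicate 1). With the total signal of the scanner software its change was -0.04. miR-1198-5p was at -4.94, -4.46, and -4.60 in sham and -3.83, -3.78, and -3.57 at 14 DPI. Its change was 0.94 (SE 0.16, adjusted p = 0.0182), or 0.99 (adjusted p = 0.00986) without replicate 1, and 1 sham array detected it. miR-7671-3p was at the floor on all sham arrays and between -4.55 and -4.23 at 14 DPI (adjusted p = 0.0195, and 0.013 without replicate 1). Its 14 DPI mean was not above the lowest detected sham signal, so no fold is given. For miR-150-5p and miR-1198-5p, 1 of 2 probes separated the groups, and for miR-7671-3p neither did. Like miR-6412, miR-150-5p and miR-7671-3p entered the test only through 14 and 42 DPI, where they were higher.

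**Figure D1:**
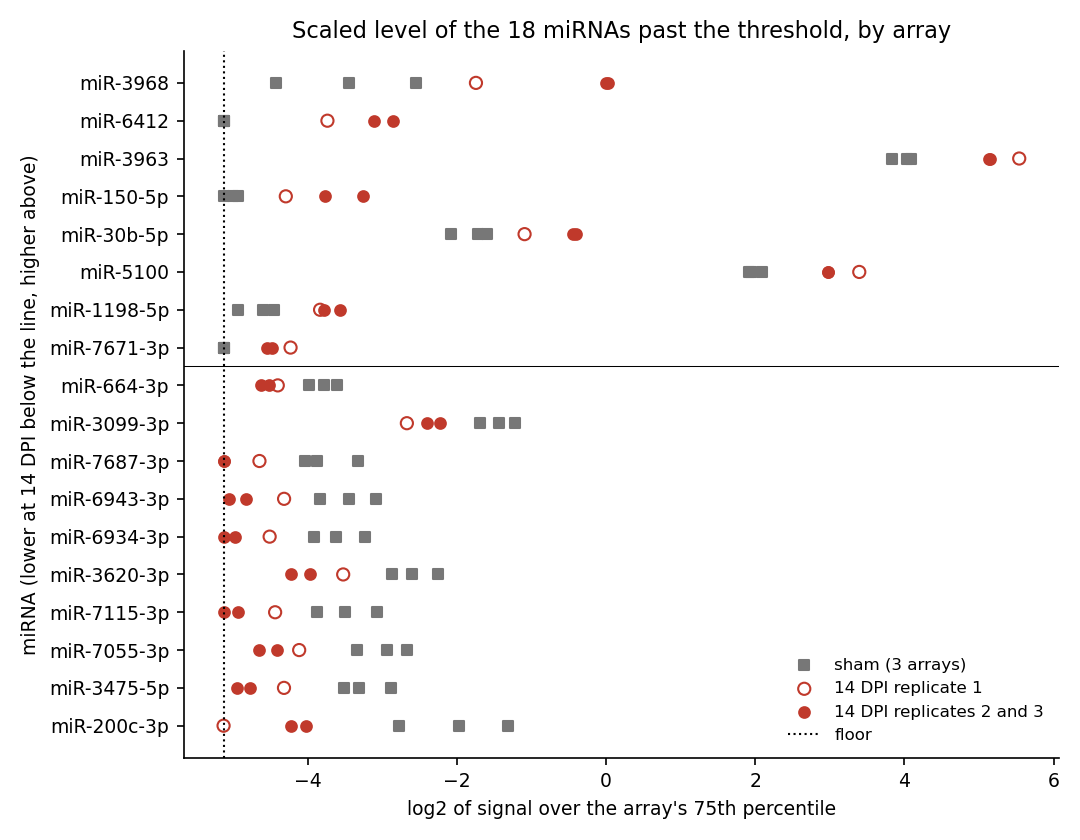
Scaled level (log2 of signal over the 75th percentile of the array) of the 18 called miRNAs on each sham array (grey squares) and each array of 14 DPI (red circles, replicate 1 open), with the floor dotted. The groups overlap for none of the 18. Replicate 1 stands nearest to sham for most of the rises and falls. It stands farthest from sham for miR-3963, miR-5100, miR-7671-3p, miR-200c-3p, and miR-3099-3p.

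Of the 10 falls, 6 were detected on no sham array: miR-664-3p, miR-6934-3p, miR-6943-3p, miR-7055-3p, miR-7115-3p, and miR-7687-3p. At 14 DPI, miR-7687-3p was detected on 1 of 3 arrays and the others on 2, so detection did not fall with the scaled level. All 6 entered the test only through 42 DPI, where all 3 arrays detected them. Their mean levels there were -5.13 to -4.95, at or near the floor. Their sham signal has only an upper bound, so no fold is given for them. Their adjusted p was 0.0178 to 0.0215 with all arrays and 0.00561 to 0.0128 without replicate 1. The direction of miR-664-3p turned with the total signal of the scanner software (0.84) and in the deposited table (2.28). For miR-664-3p, 0 of 3 probes separated the groups, and for miR-7687-3p 1 of 2 did. For the rest of the 6, every probe did. The other 4 falls were detected on all 3 sham arrays.

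miR-200c-3p belongs to the miR-200 family, which marks epithelia and represses the transcription factors Zeb1 and Zeb2. Its level was -1.97, -1.32, and -2.77 in sham and -5.13, -4.22, and -4.02 at 14 DPI. All injured arrays lay below all sham arrays, and replicate 1 was at the floor. Only 1 of its 2 probes separated the groups. The change was -2.43 (SE 0.50, adjusted p = 0.0261), and -2.10 (SE 0.53, adjusted p = 0.0223) without replicate 1. Its unscaled intensity was 72.5, 87.2, and 50.9 in sham and 6.30, 62.8, and 69 at 14 DPI.

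miR-3475-5p was at -3.31, -2.88, and -3.51 in sham and -4.32, -4.95, and -4.77 at 14 DPI (change -1.44, SE 0.22, adjusted p = 0.0178, and -1.62, adjusted p = 0.00438, without replicate 1). miR-3620-3p was at -2.60, -2.25, and -2.87 in sham and -3.52, -4.22, and -3.97 at 14 DPI (change -1.33, SE 0.26, adjusted p = 0.022, and -1.52, adjusted p = 0.0091, without replicate 1). miR-3099-3p was at -1.70, -1.22, and -1.43 in sham and -2.67, -2.41, and -2.23 at 14 DPI (change -0.99, SE 0.15, adjusted p = 0.0178, and -0.87, adjusted p = 0.0091, without replicate 1). In all 3, the groups stood apart for both probes.

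For most of the falls, the unscaled signal was not lower at 14 DPI. The mean 75th percentile of the 14 DPI arrays was 3.39 times that of the sham arrays. For 9 of the 10 falls the mean unscaled intensity was higher at 14 DPI than in sham, and the ratio over the 10 ran from 0.656 for miR-200c-3p to 2.05 for miR-664-3p. miR-3475-5p had 28.6, 29.5, and 30.4 in sham and 29.5, 38, and 40.8 at 14 DPI, so it stayed nearly level while the arrays became brighter. The 8 rises had ratios from 6.60 for miR-1198-5p to 48.2 for miR-6412. Without scaling, the median log2 change of all miRNAs tested was 1.31. A factor for each array moves all its miRNAs alike, so it leaves the order of the changes nearly as it was. Relative to the median of all miRNAs tested, the 18 kept their directions under quantile normalization. miR-3099-3p did not under normexp background correction, nor did miR-664-3p in the deposited table.

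**Figure D2:**
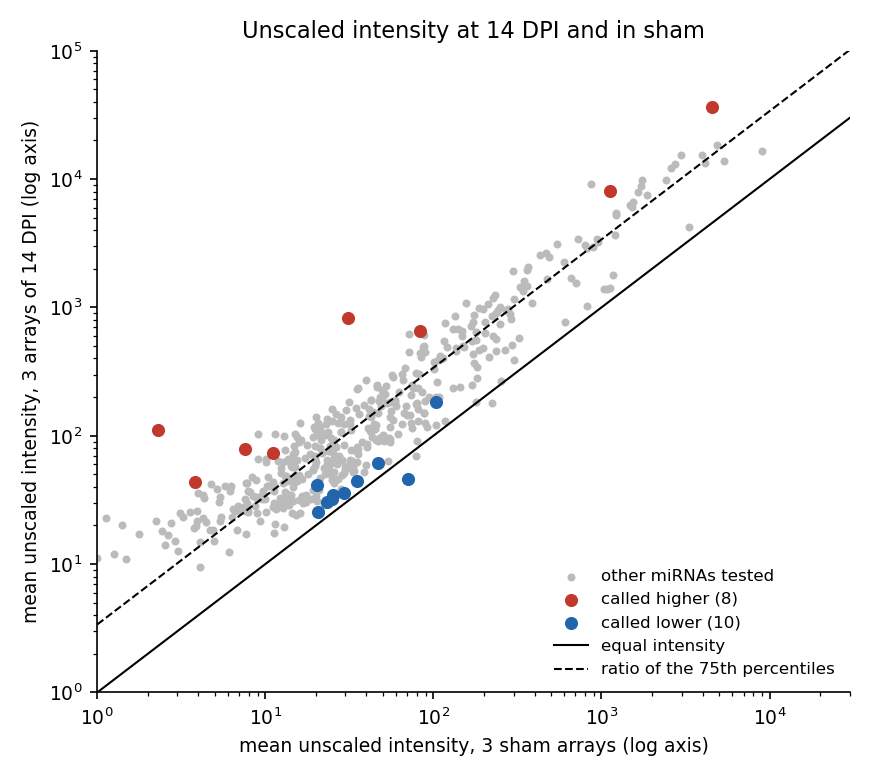
Mean unscaled intensity over the 3 arrays of 14 DPI against that over the 3 sham arrays (both log axes) for the miRNAs tested, with the 8 called higher in red and the 10 called lower in blue. The rises lie above the dashed line, the ratio of the mean 75th percentiles (3.39), and 9 of the 10 falls lie between it and the solid line of equal intensity.

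Arrays with the same replicate number deviated together in sham and at 14 DPI, so the numbers were also used as a block. This pairing was chosen from these same data, and the labels do not say what the numbers share. At 3 DPI, replicate 3 and not replicate 1 correlated least with its group (r = 0.917 and 0.943). In the fit of 12 arrays with that block, 4 of the 18 passed: miR-6412 (adjusted p = 0.00442), and miR-1198-5p, miR-30b-5p, and miR-3968 (adjusted p = 0.0441 each). The other 14 had an adjusted p of 0.0543 to 0.0762. With only the 6 arrays and the block, none passed, the 18 had an adjusted p of 0.0796 to 0.140 in limma, and 145 of the 486 had an unadjusted p under 0.05. A block for the slide, possible only because 1 array of 3 DPI shared slide 1 with the sham arrays, left none called (lowest adjusted p = 0.37, with 46 at an unadjusted p under 0.05).

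Leaving out replicate 1 raised the count from 18 to 167 of 486 miRNAs (34.4%), with 88 higher (18.1%) and 79 lower (16.3%). The 18 were among them. In the fit of the 6 arrays alone the count without it was 50. With the arrays numbered 1 left out of both groups and the replicate block, limma called 0 of the 486, with 174 at an unadjusted p under 0.05. The counts and values given below without replicate 1 come from the fit of all other arrays, in which sham replicate 1 was kept. Of the 88 rises, replicate 1 lay above all sham arrays in 22, within the sham range in 57, and below it in 9. Of the 79 falls, it lay below all sham arrays in 30, within their range in 35, and above it in 14. Over all 486, replicate 1 stood above all sham arrays for 112 and below them for 128. For replicate 2 these numbers were 162 and 179, and for replicate 3 they were 194 and 168.

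Among the miRNAs detected on all the arrays used and with groups apart, the largest rises that passed only without replicate 1 were miR-6366, miR-136-5p, miR-376a-3p, miR-219a-2-3p, and miR-98-5p. miR-6366 had levels of 0.82, 1.61, and 2.05 in sham and 1.77, 3.44, and 3.53 at 14 DPI. Its change was 1.99 (SE 0.34, adjusted p = 0.00811) without replicate 1 and 1.42 (adjusted p = 0.135) with it. Replicate 1 lay within the sham range, whereas the other two arrays lay above it. miR-136-5p and miR-376a-3p come from the imprinted Dlk1-Dio3 region of chromosome 12. Their changes without replicate 1 were 1.64 (SE 0.38, adjusted p = 0.019) and 1.21 (SE 0.20, adjusted p = 0.0071). With replicate 1 they were 1.29 (adjusted p = 0.116) and 0.90 (adjusted p = 0.102). miR-219a-2-3p, which promotes the maturation of oligodendrocytes together with the other arm of its family, had changes of 1.16 (adjusted p = 0.00438) and 0.89 (adjusted p = 0.0758). miR-98-5p, of the let-7 family, had changes of 1.16 (adjusted p = 0.00846) and 0.75 (adjusted p = 0.219).

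Among the miRNAs detected on all the arrays used and with groups apart, the largest falls that passed only without replicate 1 were miR-5622-3p, miR-1306-3p, miR-6354, miR-6385, and miR-3098-5p. Their sequences are shown because the first of these share a stretch.
miR-5622-3p: cUUAGCUGgguagugguggugc
miR-1306-3p: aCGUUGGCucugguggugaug
miR-6354: uGCCCUGGggaucaggucucu
miR-6385: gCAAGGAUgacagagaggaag
miR-3098-5p: uCCUAACAgcaggaguaggagc
miR-5622-3p and miR-1306-3p had the 8 letters UGGUGGUG in common, which 4 of the 418 miRNAs tested with a sequence contained. miR-1306-3p is at chr16:18284248-18284268 (minus strand) within Dgcr8, the gene of the protein that binds miRNA precursors for cutting in the nucleus. miR-5622-3p is at chr2:152865105-152865126 within Tpx2 and miR-6385 at chr9:58221155-58221175 within Pml, both on the plus strand. miR-6354 is at chr1:169019041-169019061 (minus strand) and miR-3098-5p at chr6:125195807-125195828 (plus strand).

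In these falls, array number 1 was the highest in both groups for all 5. miR-5622-3p had levels of 4.43, 3.28, and 2.29 in sham and 4.00, 0.22, and 0.76 at 14 DPI, so replicate 1 lay within the sham range. The change was -2.84 (SE 0.71, adjusted p = 0.0218) without replicate 1 and -1.67 (SE 0.99, adjusted p = 0.37) with it. miR-1306-3p had levels of 1.01, -0.20, and -1.24 in sham and 0.56, -3.21, and -2.63 at 14 DPI, the same order of arrays. Its change was -2.78 without replicate 1 (adjusted p = 0.0243) and -1.62 with it (adjusted p = 0.39). For miR-6354, miR-6385, and miR-3098-5p the changes without replicate 1 were -2.67, -2.41, and -2.27. With it they were -1.65, -1.84, and -1.43, with adjusted p of 0.116 to 0.338.

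**Figure D3:**
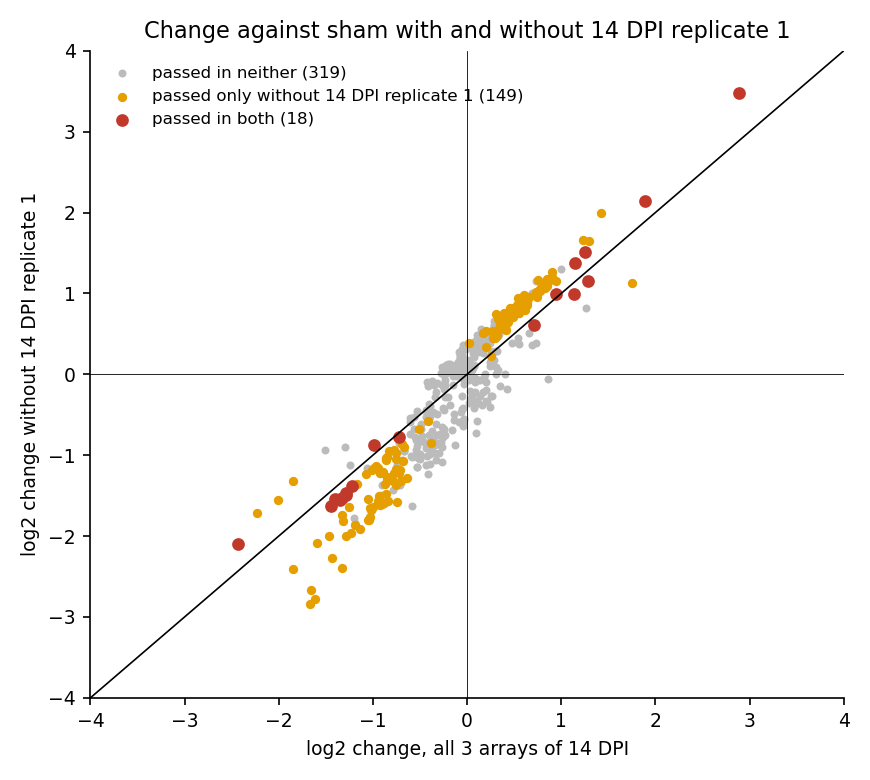
Log2 change against sham with all 3 arrays of 14 DPI (x axis) and without replicate 1 (y axis) for the 486 miRNAs tested, with the line of equal change. The plot sets apart the 18 that passed in both fits and the 149 that passed only without replicate 1, most of which lie farther from 0 on the y axis than on the x axis.

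This joint deviation of the arrays numbered 1 ran through much of the data. Array 1 was the lowest of its group in both sham and 14 DPI for 185 of the 486 miRNAs (38.1%), and the highest in both for 155 (31.9%). Among the 80 rises that passed only without replicate 1, array 1 was the lowest in both groups for 65 (81.3%) and the highest in both for 0. Among the 69 falls that passed only without it, array 1 was the highest in both for 36 (52.2%) and the lowest in both for 0. The 14 DPI side of these counts, and the 0, follow largely from how these sets were chosen. Of the 18 called with all arrays, array 1 was the lowest in both groups for 5 and the highest for 1. The cause of this deviation was not tested.

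Base composition differed between these sets of miRNAs. The median share of G and C in the mature sequence was 63.6% where array 1 was the highest in both groups (131 with a sequence) and 45.5% where it was the lowest in both (164 with a sequence). The median share of G was 45.5% and 23.8%, respectively, and 28.6% over all tested. Among the miRNAs called without replicate 1, the median of G and C was 45.5% for the 78 rises with a sequence and 61.9% for the 66 falls. It was 54.5% for the 274 not called. CCCC stood in 18 of those 66 falls (27.3%), 3 of the 78 rises (3.85%), and 17 of the 274 not called (6.2%). These 18 falls with CCCC include the 8 called with all arrays, from which the motif was chosen. Late-annotated miRNAs made up 50 of the 79 falls (63.3%) and 6 of the 88 rises (6.82%), against 31.9% of the 486 tested. They were 71.6% of the miRNAs for which array 1 was the highest in both groups. Where array 1 was the lowest in both, they were 1.62%. These are descriptions of the sets, without a test.

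**Figure D4:**
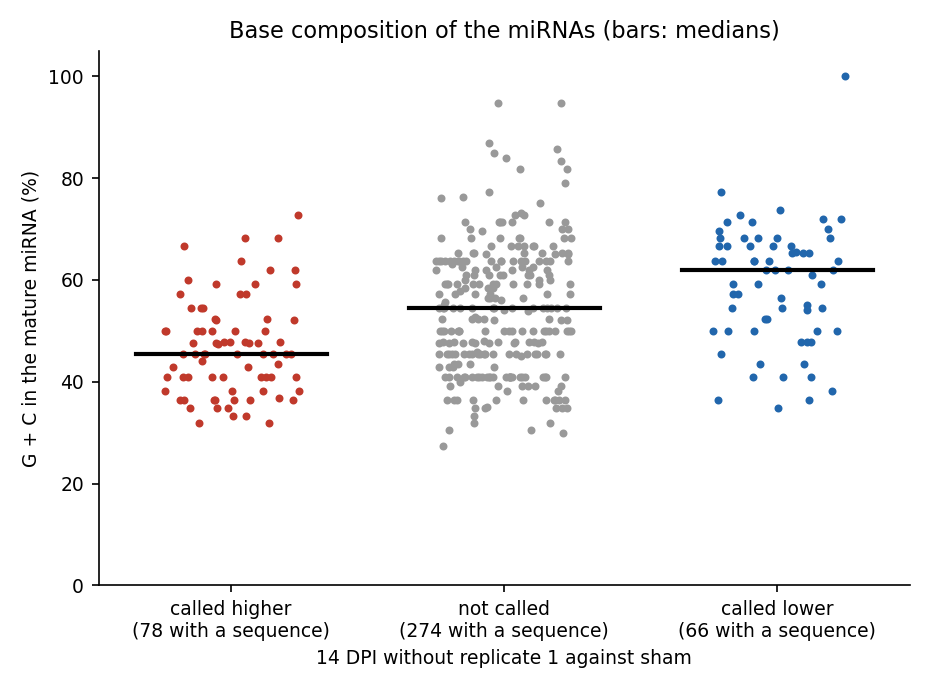
Share of G and C in the mature sequence (y axis, in percent) for miRNAs called higher, not called, and called lower at 14 DPI without replicate 1, 1 point per miRNA with a RefSeq sequence and bars at the medians. The medians are 45.5%, 54.5%, and 61.9%, and the 3 sets overlap widely.

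With miR-124-3p and miR-467a-3p left out, the miRNAs with the highest signal over the 6 arrays were miR-3963, miR-494-3p, let-7c-5p, miR-3473b, and miR-29a-3p. Apart from miR-3963, none of these was called with all arrays. let-7c-5p, of a family that restrains growth genes, had a log2 difference of -0.01 (SE 0.27, adjusted p = 1), and 0.31 (adjusted p = 0.22) without replicate 1. miR-29a-3p had one of 0.10 (SE 0.21, adjusted p = 0.861), and 0.33 (adjusted p = 0.134) without it. miR-494-3p had levels of 5.52, 5.10, and 4.24 in sham and 5.47, 3.22, and 3.52 at 14 DPI, and its difference was -0.89 (adjusted p = 0.432), or -1.59 (adjusted p = 0.0365) without replicate 1. miR-3473b had a difference of -0.33 (SE 0.35, adjusted p = 0.647), or -0.61 (adjusted p = 0.191) without replicate 1.

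The epithelial list holds the miR-200 family. Of its 5 members detected on all sham arrays, all 5 had 14 DPI levels below every sham level, a pattern found in 46 of the 486 miRNAs tested (9.47%). miR-200a-3p, miR-200b-3p, and miR-141-3p were chosen for naming after their values were seen. The sequences of the other members are shown because the family is defined by its seeds.
miR-429-3p: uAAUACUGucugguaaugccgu
miR-200b-3p: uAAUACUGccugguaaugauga
miR-200a-3p: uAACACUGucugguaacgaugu
miR-141-3p: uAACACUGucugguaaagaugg
The first of these pairs has the seed of miR-200c-3p, AAUACUG, and the second pair the seed AACACUG. miR-200a-3p (chr4:156054911-156054932), miR-200b-3p (chr4:156055685-156055706), and miR-429-3p (chr4:156053916-156053937) lie together within the long noncoding RNA Gm13648. miR-141-3p (chr6:124717917-124717938) lies beside miR-200c-3p. All are on the minus strand.

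miR-429-3p had levels of -0.52, -0.10, and -1.36 in sham and -3.56, -2.45, and -1.98 at 14 DPI. Its change was -2.01 (adjusted p = 0.0654), and -1.56 (adjusted p = 0.0362) without replicate 1. miR-200b-3p had levels of -1.28, -0.87, and -2.22 in sham and -4.38, -2.90, and -2.64 at 14 DPI. Its change was -1.85 (adjusted p = 0.0954), and -1.31 (adjusted p = 0.0497) without replicate 1. miR-200a-3p and miR-141-3p had differences of -1.51 (adjusted p = 0.147) and -1.24 (adjusted p = 0.116), or -0.93 (adjusted p = 0.136) and -1.13 (adjusted p = 0.0912) without replicate 1. Replicate 1 was the lowest or tied for the lowest in all 5, so their 14 DPI levels stayed below every sham level with and without it. For miR-200a-3p the gap was small, with -2.60 on 14 DPI replicate 3 against -2.57 on sham replicate 3. The 5 were measured on the same arrays and are not replicates of one another. Of the 6 epithelial miRNAs tested, 1 was called lower with all arrays (2.06% of all 486) and 3 without replicate 1 (16.3%), and the list's median change was -1.68 and -1.22. The median over all 486 was 0 in both fits. Without scaling the list's median was -0.06, or -1.37 relative to the median of all. A factor per array can hardly alter this relative median. It was -1.61 under quantile normalization, -0.36 under normexp, and -2.12 in the deposited table.

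Members of the brain cell lists were called only when replicate 1 was left out. Of the 14 neuron-enriched miRNAs, 0 were called with all arrays, and 8 rose without replicate 1, where 18.1% of all 486 miRNAs were called higher. The most changed was miR-212-5p, which neuronal activity induces through the transcription factor CREB, with 1.12 (adjusted p = 0.0158) without replicate 1 and 0.80 (adjusted p = 0.164) with it. The list's median change was 0.36 with all arrays and 0.64 without replicate 1. miR-9-3p, the member with the highest signal, had a difference of 0.40 (adjusted p = 0.283) without replicate 1 and 0.16 (adjusted p = 0.813) with it. Of 4 oligodendrocyte-enriched miRNAs, 2 rose without replicate 1 (18.1% of all tested), among them miR-219a-2-3p, and the median was 0.62 and 0.91. miR-338-3p had a difference of 0.74 (adjusted p = 0.0859) without replicate 1 and 0.44 (adjusted p = 0.457) with it.

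Lists of blood, vessel, and immune cells showed few calls, to be read against the 18.1% higher and 16.3% lower among all 486 without replicate 1. Of the 2 myeloid miRNAs tested, 0 were called in either fit, and miR-223-3p had a difference of -0.24 (adjusted p = 0.35), or -0.15 (adjusted p = 0.436) without replicate 1. None of 3 inflammation-linked miRNAs was called, and miR-21a-5p had a difference of 0.42 (adjusted p = 0.431), or 0.72 (adjusted p = 0.0594) without replicate 1. Of 5 erythroid miRNAs, 1 was tested, miR-486a-5p, which was detected on no sham array, so no fold is given. It passed as lower without replicate 1 (adjusted p = 0.0426), and not with it (adjusted p = 0.231). In the vascular list, 1 of 4 rose without replicate 1: miR-143-3p, known from smooth muscle (adjusted p = 0.0246, and 0.187 with it). No fold is given because no sham array detected it. miR-126a-3p, of the endothelium, had a difference of 0.15 (adjusted p = 0.793), or 0.31 (adjusted p = 0.335) without replicate 1. In the list of choroid plexus and ciliated cells, 1 of 6 rose without replicate 1, miR-204-5p, with levels of -1.20, -0.72, and -0.71 in sham and -0.34, 0.36, and 0.18 at 14 DPI. These groups did not overlap, and its change was 0.95 (adjusted p = 0.0744), or 1.15 (adjusted p = 0.0128) without replicate 1. Of 2 liver miRNAs tested, miR-194-5p passed as higher without replicate 1 (adjusted p = 0.00438, and 0.171 with it), with no fold given because no sham array detected it, and miR-192-5p had a difference of 0.36 (adjusted p = 0.223) without replicate 1 and 0.03 (adjusted p = 1) with it.

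In families of broadly expressed miRNAs, calls were again more frequent without replicate 1, as they were among all 486 miRNAs (18.1% higher, against 1.65% with it). The miR-30 family had 1 of 8 called, miR-30b-5p, with a median of 0.46, and 4 without replicate 1, with a median of 0.71. miR-30a-5p changed by 0.61 (adjusted p = 0.0378) without replicate 1, and its difference with it was 0.38 (adjusted p = 0.37). Of 9 members of let-7 and miR-98, 0 were called with all arrays and 5 rose without replicate 1. Their median was 0.17 and 0.51, and relative to the median of all miRNAs it was -0.08 under quantile normalization and in the deposited table. For miR-23, miR-27 and miR-24, 4 of 5 rose without replicate 1, with a median of 0.80, and miR-27b-3p changed by 1.04 (adjusted p = 0.00777). With replicate 1 its difference was 0.78 (adjusted p = 0.102) and the median 0.56. Both miR-221-3p and miR-222-3p rose without replicate 1, the first by 0.91 (adjusted p = 0.0362), and with it the difference was 0.59 (adjusted p = 0.334). For miR-99/100 and miR-125, 3 of 6 rose without replicate 1, among them miR-125b-5p (0.58, adjusted p = 0.00614, and 0.39, adjusted p = 0.166, with it).

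In the other families at most 1 member passed without replicate 1, where 18.1% of all tested were called higher. These were 1 of 5 for miR-29, 1 of 2 for miR-26 (miR-26a-5p, 0.55, adjusted p = 0.0476, and 0.33, adjusted p = 0.398, with it), and 1 of 8 for miR-17-92 (miR-93-5p, 0.81, adjusted p = 0.0378, and 0.50, adjusted p = 0.369, with it). None passed among 8 of the miR-15/16 and miR-103 families, 4 of miR-181, and miR-34a-5p. miR-103-3p, miR-181a-5p, and miR-34a-5p had differences of 0.26, 0.53, and 0.33 without replicate 1 and of -0.0505, 0.26, and -0.00086 with it.

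The members of the large miRNA clusters that passed without replicate 1 were mostly higher in one and all lower in the other. The Dlk1-Dio3 cluster holds imprinted miRNAs of chromosome 12 that are prominent in brain. Of its 37 members tested, 0 were called with all arrays, and without replicate 1 17 rose and 1 fell, miR-494-3p, against 18.1% higher and 16.3% lower among all 486. The rises included miR-136-5p and miR-376a-3p, whose values are given above. The median was 0.44 with all arrays and 0.72 without replicate 1. Relative to the median of all miRNAs it was 0.57 under quantile normalization, 0.38 under normexp, and 0.47 in the deposited table. The Sfmbt2 cluster lies in an intron of that gene on chromosome 2 and is found in rodents. Its list was filled by miRNA name, and whether each member lies in that intron was not checked. Of its 12 members tested (miR-467a-3p was left out of the lists), 0 were called with all arrays. Without replicate 1, 8 fell, against 16.3% of all 486. Without replicate 1, miR-467f changed by -1.65 (adjusted p = 0.019) and miR-466i-5p by -1.22 (adjusted p = 0.026). With it their differences were -1.03 (adjusted p = 0.313) and -0.78 (adjusted p = 0.324). The median was -0.73 and -1.30. Relative to the median of all miRNAs it was -0.53 under quantile normalization, -0.05 under normexp, and -0.78 in the deposited table. Without scaling the list's own median was 0.95. Of the 155 late-annotated miRNAs tested, 5 were called higher and 8 lower with all arrays, against 1.65% and 2.06% of all 486, and their median was -0.43. Without replicate 1 these counts were 6 and 50, against 18.1% and 16.3%, and the median was -0.88.

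**Figure D5:**
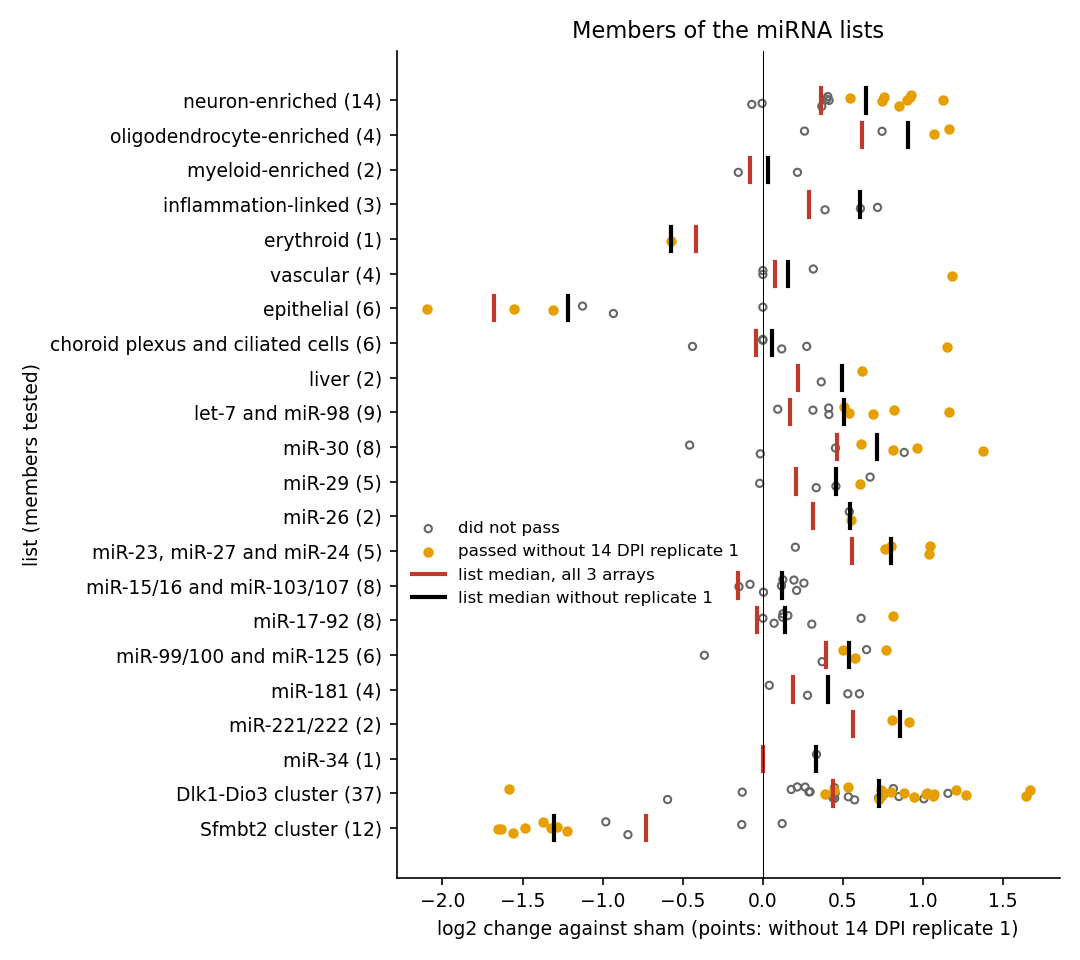
Log2 change against sham without 14 DPI replicate 1 for each tested member of the miRNA lists (points, filled where the member passed), with the list medians from all 3 arrays (red bars) and without replicate 1 (black bars). The black bars lie to the right of the red ones in all lists shown except the erythroid and Sfmbt2 lists (the late-annotated list, whose median moves from -0.43 to -0.88, is not drawn).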

How the data were processed

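RNA of microglial exosomes was measured on single-colour Agilent mouse miRNA arrays, 12 in all in 4 groups of 3. Per the file headers, Agilent Feature Extraction 10.7.1.1 had subtracted the background from the deposited probe intensities. The authors' deposited log2 table was quantile-like, since all columns share a median; its steps are not given in the sources used here, and it served as an alternative.

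The spots of all arrays were given the probe and miRNA names of 3 DPI replicate 1. Control and outlier spots were left out, spots were averaged over 4415 probes, and probes were summed per miRNA. Sums were divided by the 75th percentile of the 230 miRNAs that every one of the 12 arrays detected, raised to a floor (log2 -5.13, 1 SD of undetected signal on the noisiest array), and log2-transformed. Detection required more than 0.5 of the spots of a probe to be well above background. limma 3.58.1 in R 4.3.3 was fitted to all 12 arrays with group as its only term, and its two-sided p-values were adjusted by Benjamini-Hochberg over the 486 miRNAs tested. Python 3.11.15, NumPy 2.4.6, and pandas 2.3.3 were used for the rest. No spot was saturated. The number of arrays limits the precision.

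"At least" folds compare the brighter group's mean with the dimmer group's mean of, per array, the higher of the lowest detected signal and the miRNA's own. The miRNAs named with values were those called, the 5 largest rises and falls called only without 14 DPI replicate 1 with groups apart and detected on all arrays, the 5 highest levels, and the most changed and highest member of each list. The members, lists, and tests were chosen with earlier results of these data known, and the floor and the motifs after seeing the data. Replicate numbers were taken as pairs because deviations from the group means of same-numbered sham and 14 DPI arrays correlated (0.83, 0.43, and 0.74 over 486 miRNAs). Alternatives changed the array set, block, background, scaling, probe summary, floor, filter, and test. In simulated data for this comparison (486 miRNAs, 200 changed), 64% of log2 changes of 1 and 92% of changes of 2 were recovered, with 4.29% false calls. The simulated noise was independent between miRNAs and between arrays, without a slide difference or deviations shared by arrays. These shares therefore check the code and do not carry over to the real arrays. miR-124-3p was not named with values and was left out of the lists and of the highest levels. It was not removed from the scaling, the tests, or the counts over all miRNAs. All 30 of its spots on each array of 14 DPI, and none on sham arrays, had scan positions over 100 µm off the grid. miR-467a-3p, whose name or spots differed between the arrays' files, was treated the same way.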

Additional observations from a re-analysis of the deposited data

Results flagged for a closer look

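Of the 486 miRNAs tested, 3 (0.617%) differed between 14 and 3 DPI in a direct test of that difference (limma, adjusted p under 0.05, with 101 at an unadjusted p under 0.05). All 3 were among the rises at 14 DPI against sham. miR-3963 was higher at 14 DPI by 1.51 on the log2 scale (SE 0.21, adjusted p = 0.0096), with 3 DPI levels of 3.99, 3.38, and 3.94. miR-5100 was higher by 1.63 (SE 0.18, adjusted p = 0.00333), with 3 DPI levels of 1.72, 1.36, and 1.39. miR-6412 had a fitted difference of 1.79 (SE 0.21, adjusted p = 0.00333), with 3 DPI levels of -5.13, -5.13, and -4.81. It was detected on 1 of the 3 arrays of 3 DPI and lay at the floor on the others, so the size of this difference depends on the floor and is no measured fold. In each of the 3, all arrays of 14 DPI stood above all arrays of 3 DPI.

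Of these arrays, 1 of 3 DPI was on slide 1. Within slide 2, with 3 arrays of 14 DPI and 2 of 3 DPI, the differences were 1.62, 1.75, and 1.73, and limma called 0 (adjusted p = 0.158, 0.114, and 0.158, with 87 of the 486 at an unadjusted p under 0.05). Against 42 DPI, the 3 differences were 0.84, 1.05, and 0.38, and 0 of 486 miRNAs were called (54 at an unadjusted p under 0.05).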

How the results depend on the processing

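The count of 18 called miRNAs ranged from 1 to 167 when single arrays were left out, and within the 6 arrays alone it was 0 with all of them and 50, 0, and 0 without 14 DPI replicate 1, 2, or 3 (the last 3 settings were chosen after seeing the data). With the replicate block it was 4 over 12 arrays, 0 over the 6 arrays, and 0 over the 6 without the arrays numbered 1. It was 0 with slide as a block, 370 (18 higher) with normexp, 30 with quantile normalization, 319 (all higher) without scaling, 8 at 2 times the floor, 9 of 230 among miRNAs detected on all 6 arrays, 1 of 1881 without a filter, 0 with the methods' t-test after adjustment (47 before it), and 143 (98 higher) in the deposited table. Scaling over the miRNAs detected on the 6 arrays gave the same values throughout and so tested nothing. Under the other settings it was 19 to 24, and with the software's total signal 6 of 24 were higher.

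Directions turned as follows. With total signal, miR-150-5p was -0.044, miR-3968 -4.35, miR-664-3p 0.84, and miR-219a-2-3p -0.14. With normexp, where the median of all miRNAs moved to -0.96, miR-1198-5p was -0.80, miR-150-5p -0.74, miR-6412 -0.47, miR-7671-3p -0.94, miR-219a-2-3p -0.15, and miR-98-5p -0.27. Without scaling, where that median moved to 1.31, miR-3099-3p was 0.73, miR-3475-5p 0.28, miR-3620-3p 0.39, miR-664-3p 1.00, miR-6934-3p 0.39, miR-6943-3p 0.44, miR-7055-3p 0.31, miR-7115-3p 0.36, miR-7687-3p 0.30, miR-5622-3p 0.048, miR-1306-3p 0.10, miR-6354 0.0658, and miR-3098-5p 0.29. In the deposited table, where it moved to 0.14, miR-664-3p was 2.28. The cause was not tested for total signal or the deposited table.

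List medians without scaling were 1.96 for neuron, 2.34 oligodendrocyte, 1.18 myeloid, 1.69 inflammation, 0.93 erythroid, 1.14 vascular, -0.0622 epithelial, 1.01 choroid plexus, 1.22 liver, 1.89 let-7, 2.18 miR-30, 1.93 miR-29, 2.03 miR-26, 2.28 miR-23/27/24, 1.56 miR-15/16, 1.63 miR-17-92, 2.11 miR-99/125, 1.91 miR-181, 2.28 miR-221, 1.72 miR-34, 2.03 Dlk1-Dio3, 0.95 Sfmbt2, and 0.87 late-annotated. In the deposited table they moved for oligodendrocyte (1.02), myeloid (1.67), erythroid (3.55), choroid plexus (0.50), and liver (1.55). Without 14 DPI replicate 1 the miR-30 median moved to 0.71. Other list medians shifted too, among them let-7 (0.17 to 0.51), Sfmbt2 (-0.73 to -1.30), and late-annotated (-0.43 to -0.88).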
